A study of Mus musculus with 36 samples.

Results

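Macrophages and related myeloid cells were followed through 40 mouse genes in stroma of human oral carcinomas grown in mice on diets that differed in fatty acids. The 40 genes form a list that was drawn up by function, not by a threshold on measured values, and every one had a probe set assigned to it alone on the array, out of 17097 genes with such a probe set. Where a gene had several probe sets, the brightest one by its average was used. The stroma came from orthotopic xenografts of 2 tumour cell types in immunodeficient NSG (NOD-SCIDγ) mice: SCC25, an established human oral carcinoma line, and the cells labelled VDH15. Tumour cells carried PLKO, a non-targeting short hairpin RNA, or shCD36, a hairpin against the human fatty acid receptor CD36, so that the mouse stroma itself was not targeted and mouse Cd36 is no check of the hairpin. The stromal cells are labelled a neural fraction, and RNA was taken with magnetic beads, amplified and hybridised to 36 mouse arrays.

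The arrays make 11 groups, each labelled as 1 biological replicate measured on 3 or 4 technical replicate arrays. Non-targeting VDH15 tumours were studied on a control diet, on one rich in palmitic acid (palmitate) and on one rich in oleic acid (oleate) in the first VDH15 experiment, with 4 arrays per diet. A second VDH15 experiment and the SCC25 experiment combined both hairpins with control and palmitate diets and had 3 arrays per group. NSG mice lack T, B and natural killer cells and still have monocytes, macrophages and neutrophils. The ages of the mice and how many animals were behind a group are not given in the sources used here. Levels are log2 intensities, so a difference of 1 is a 2-fold difference. The deposited values had been adjusted so that the experiments have the same fitted mean, so levels are compared only within an experiment. P-values between conditions rest on n = 3 experiments for the palmitate contrast in non-targeting tumours, n = 2 for comparisons with shCD36 and n = 1 for oleate.

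Tissue macrophages develop from embryonic precursors and from blood monocytes under the control of the transcription factor PU.1 (Spi1) and the receptor for colony stimulating factor 1 (Csf1r). They take up debris and microbes through scavenger and lectin receptors and release complement C1q. They bind antibodies with Fc receptors, of which the activating ones signal through the adaptor Fcer1g. In nerves and tumours they accompany blood vessels, Schwann cells and fibroblasts. Some genes of the list are not exclusive to them: Stab1 and Mrc1 are also made by sinusoidal and lymphatic endothelium in mice, and Ctla2b, a relative of cathepsin propeptides, was first known from activated T cells and mast cells.

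The mean levels of the 40 genes over all arrays ran from 3.82 log2 for Cd163 to 10.2 log2 for Stab1, and 31 of the 40 lay above the lowest 25% of all genes (under 5.19 log2), which was left out of the tests. The 9 left out were Adgre1, Ptprc (CD45), Itgam (CD11b), Cd163, Marco, Clec7a, Clec10a, Cybb and F13a1, which include the usual surface markers of mouse macrophages, so the label of the list rests on its other genes. A gene could pass through the groups in which it is high, and counts over the 31 do not stand for all 40. Probe sets bind with different strength, so levels are not ranked between genes. Within the role groups the mean levels ran from Cx3cr1 (5.56) to Csf1r (6.27) for the transcription factor and the growth factor and chemokine receptors, from Ptprc (4.31) to Cd52 (6.70) for the pan-leukocyte genes and from Adgre1 (4.81) to Cd68 (7.30) for the macrophage markers. They ran from Fcgr3 (5.33) to Fcer1g (6.82) for the Fc receptors and adaptors and from Cd163 (3.82) to Stab1 (10.2) for the pattern, lectin and scavenger receptors. The ranges were C1qa (5.43) to C1qc (6.03) for complement, Cybb (5.11) to Lyz2 (7.42) for the killing and lysosome effectors, F13a1 (4.13) to Fgl2 (7.63) for the secreted factors and Cd83 (5.58) to Ctla2b (6.76) for the remaining pair. The probe sets of Lyz2 and Fcgr2b are of the kind that can bind related sequences, and those of Laptm5, Aif1, Ms4a6d and Trem2 are shared between transcripts, so related genes may add to these values.

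Of the series as a whole, the following touches the results. Array medians lay between 5.98 and 6.04 log2, and their number limits the precision. In the kept genes 3 arrays stood apart on the first principal component, which held 44.5% of the variance: palmitate replicates 1 and 2 of the first VDH15 experiment and non-targeting palmitate replicate 1 of the second. Palmitate replicate 3 of non-targeting tumours in the second VDH15 experiment stood apart in the leukocyte genes of the list. The differences of several members are given with and without it. In the cells labelled neural, 4 of the 7 Schwann cell and glial markers measured lay above the lowest 25% of genes, as did 8 of 10 fibroblast, all 12 blood endothelial and all 8 keratinocyte markers.

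Palmitate was accompanied by higher levels of 6 members in non-targeting tumours. Cd14, the co-receptor for bacterial lipopolysaccharide, rose by 1.24 ± 0.14 log2 (SE, n = 3, 2.36-fold, limma adjusted p = 0.0158). The scavenger receptor Stab1 rose by 1.16 ± 0.22 (adjusted p = 0.0358), the secreted fibrinogen-like protein Fgl2 by 1.89 ± 0.41 (3.71-fold, adjusted p = 0.0444) and the mannose receptor Mrc1 (CD206) by 1.85 ± 0.41 (3.61-fold, adjusted p = 0.0491). The platelet and macrophage chemokine Pf4 rose by 0.44 ± 0.10 (adjusted p = 0.0456) and Ctla2b by 1.05 ± 0.23 (adjusted p = 0.0464). Pf4 had a mean of 5.27 log2 over all arrays, just above the filter at 5.19. Its non-targeting means on control (4.99, 5.17 and 5.16) and oleate (5.04) lay below that filter. Those on palmitate (5.66, 5.43 and 5.55) lay above it. The groups in which Pf4 was high thus helped it pass, and its call is weak support. The calls, with Pf4 among them, are 6 of 31 members tested, and 3.65% of the 12823 genes tested were called higher. No member was called lower. The median of the 31 members was 0.42 log2, with 28 of them above 0, and the median of all genes tested was -0.033 log2.

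Lysozyme Lyz2, an antibacterial enzyme of macrophages and neutrophils, differed by 1.84 ± 0.42 log2 and missed the threshold (limma adjusted p = 0.0511). The adaptor Tyrobp (DAP12) differed by 1.10 (limma adjusted p = 0.0661). The limits of the calls are narrow. Without the 3 arrays that stood apart, the limma adjusted p was 0.0176 for Cd14 and 0.0425 for Lyz2, while Mrc1 (0.0602), Stab1 (0.0525), Fgl2 (0.0695), Pf4 (0.0581) and Ctla2b (0.0525) missed the threshold. With only the 6 averages of this contrast in the fit no member was called, and the limma adjusted p of Cd14 was 0.0702. Without SCC25 it was 0.179 for Cd14, and without the second VDH15 experiment 0.0796. Without palmitate replicate 3 of the second VDH15 experiment Pf4 missed it too, at a limma adjusted p of 0.0863.

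The 3 experiments gave this average in different ways. In the first VDH15 experiment 38 of 40 members had a higher mean on palmitate, with a median difference of 0.61 log2, and in 29 of 40 (72.5%) all 4 palmitate arrays lay above all 4 control arrays, against 14.6% of all 17097 genes. In SCC25 non-targeting tumours 27 of 40 were higher with a median of 0.053 log2, and 9 of 40 (22.5%) had arrays without overlap, against 12.8% of all genes. In the second VDH15 experiment 33 of 40 were higher with a median of 0.33 log2, and 14 of 40 (35%) had arrays without overlap, against 12.7% of all genes. The median over all genes was between -0.030 and -0.0072 log2 in these 3 pairs. In SCC25, 23 of the 40 members differed by less than 0.1 log2 between the diets.

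**Figure D1:**
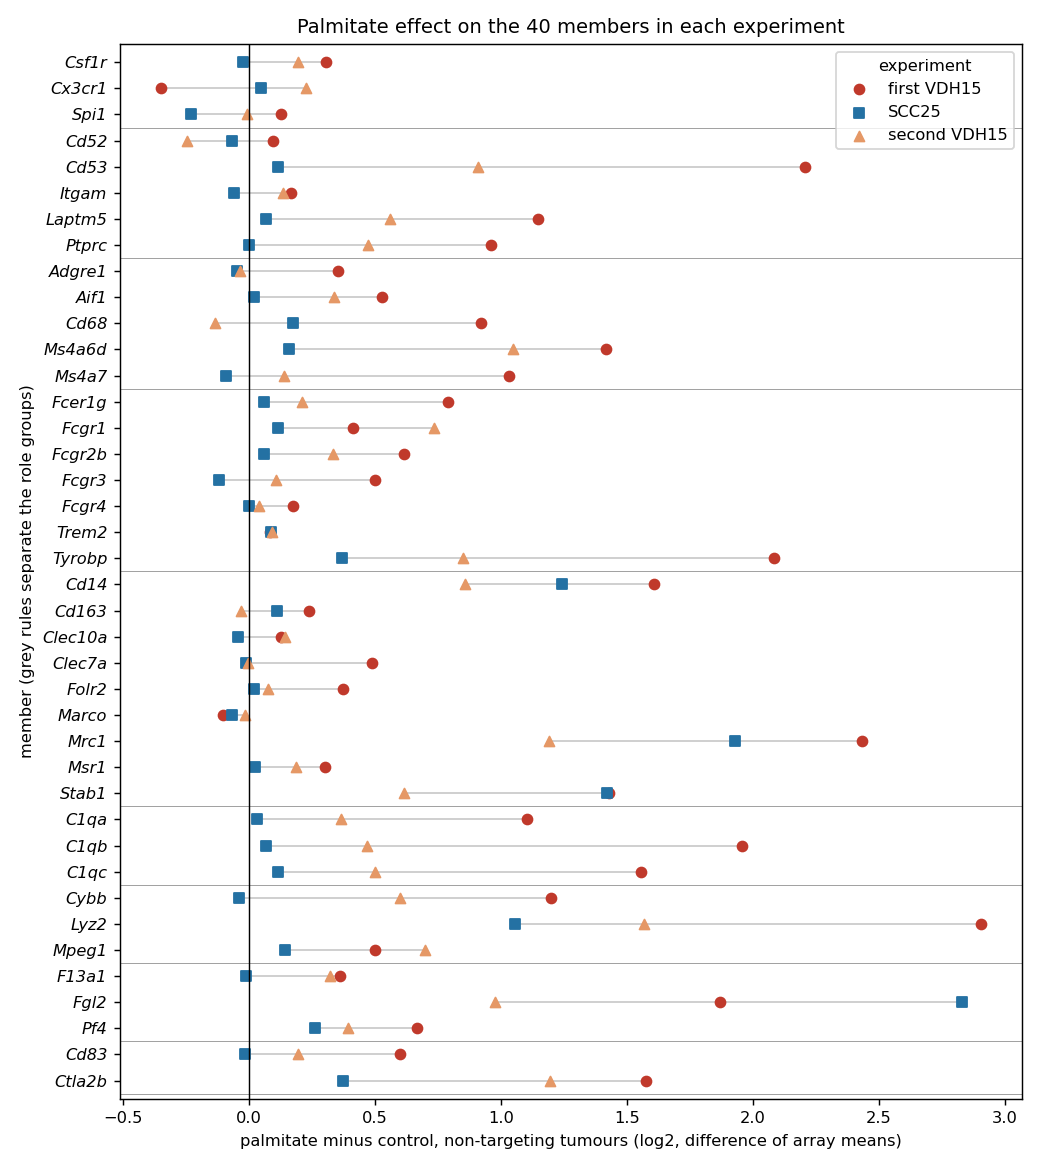
Difference between palmitate and control means (log2, horizontal axis) for each of the 40 members (vertical axis, grouped by role) in non-targeting tumours of the first VDH15 (circles), SCC25 (squares) and second VDH15 (triangles) experiments, with no error shown. The SCC25 squares lie within 0.4 log2 of 0 except for Fgl2, Mrc1, Stab1, Cd14 and Lyz2, while 38 of 40 first VDH15 circles lie above 0.

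All 5 of Cd14, Mrc1, Stab1, Lyz2 and Fgl2 had palmitate arrays above control arrays without overlap in each of the 3 experiments, 5 of 40 members against 4.35% of all genes. Another 17 of 40 members (42.5%) did so in the first VDH15 experiment and in neither of the others, against 6.08% of all genes, among them Ptprc, Cd53, Itgam, Adgre1, Cd68, Aif1, C1qb and the Fc receptor genes Fcgr2b, Fcgr3, Fcgr4 and Fcer1g. These members were named after their values were seen.

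Cd53, a tetraspanin of all leukocytes, had the widest range of the palmitate difference between experiments, followed by C1qb, Fgl2, Lyz2, Tyrobp and C1qc. On the control diet in the first VDH15 experiment Cd53 was at 4.75, 5.91, 5.64 and 5.74 log2 on the 4 arrays, on oleate at 5.94, 5.05, 6.51 and 5.72, and on palmitate at 8.16, 7.33, 6.85 and 8.51. The palmitate arrays lay above all others, by 2.21 log2 in the mean over control. In SCC25 non-targeting tumours the control arrays read 6.49, 6.50 and 6.59 and the palmitate arrays 6.60, 6.82 and 6.52, groups that overlap, with a difference of 0.12. In the second VDH15 experiment the control arrays read 6.06, 6.21 and 6.27 and the palmitate arrays 6.39, 5.95 and 8.94. Replicate 3 alone was high there, and the difference of 0.91 log2 became -0.013 without it. In shCD36 tumours Cd53 was at 6.65, 6.41 and 6.42 on control and 6.34, 6.47 and 6.50 on palmitate in SCC25. It was at 6.28, 6.13 and 6.05 on control and 6.52, 7.19 and 6.33 on palmitate in second VDH15 shCD36 tumours, where all palmitate arrays lay above the control arrays.

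Tyrobp, the adaptor through which TREM2 and other receptors signal, showed a similar layout. In the first VDH15 experiment it was at 4.78, 5.77, 6.02 and 5.50 on control, 5.94, 5.18, 6.27 and 5.55 on oleate and 7.20, 7.75, 6.88 and 8.59 on palmitate. In SCC25 it was at 6.17, 6.56 and 6.33 on control and 6.71, 6.82 and 6.64 on palmitate in non-targeting tumours. The groups did not overlap in either experiment, with differences of 2.09 and 0.37 log2. Second VDH15 arrays of Tyrobp read 6.20, 6.05 and 6.22 on control and 6.04, 6.82 and 8.17 on palmitate, with overlap and a difference of 0.85 that became 0.27 without replicate 3. In shCD36 tumours the control and palmitate means were 6.48 ± 0.05 and 6.47 ± 0.09 in SCC25 and 6.31 ± 0.24 and 6.55 ± 0.34 in the second VDH15 experiment (SD, 3 arrays).

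The promoters of Cd53 and of 2 genes that followed it most closely between arrays were taken from RefSeq on build GRCm38.p6 and cover 250 bases before and 50 after the annotated start: Cd53 at chr3:106790100-106790399, minus strand, Cybb at chrX:9469275-9469574, minus strand and Fcer1g at chr1:171234300-171234599, minus strand. Capitals mark GAGGAAG, letters that the factor PU.1 is known to bind, searched on both strands with no second motif. The motif stood in 12 of the 29 members found in the promoter table and in 15.4% of all 27025 genes there, and Cd53 held 1 copy on the opposite strand while Cybb and Fcer1g held none in these windows.
Cd53: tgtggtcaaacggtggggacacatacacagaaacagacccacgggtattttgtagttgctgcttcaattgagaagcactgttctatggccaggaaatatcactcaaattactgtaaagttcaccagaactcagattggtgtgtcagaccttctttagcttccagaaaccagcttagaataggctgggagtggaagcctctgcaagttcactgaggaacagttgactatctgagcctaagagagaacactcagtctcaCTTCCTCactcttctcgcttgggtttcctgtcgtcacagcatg
Cybb: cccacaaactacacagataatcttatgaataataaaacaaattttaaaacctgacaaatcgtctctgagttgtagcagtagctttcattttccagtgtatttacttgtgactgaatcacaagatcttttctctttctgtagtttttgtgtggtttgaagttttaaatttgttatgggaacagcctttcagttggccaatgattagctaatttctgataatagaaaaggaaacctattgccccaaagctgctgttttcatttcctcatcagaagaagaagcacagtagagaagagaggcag
Fcer1g: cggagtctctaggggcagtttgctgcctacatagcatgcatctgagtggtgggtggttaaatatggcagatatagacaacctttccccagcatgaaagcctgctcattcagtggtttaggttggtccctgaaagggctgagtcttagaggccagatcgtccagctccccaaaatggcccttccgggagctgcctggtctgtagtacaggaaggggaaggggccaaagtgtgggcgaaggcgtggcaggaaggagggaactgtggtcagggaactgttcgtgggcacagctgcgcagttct

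Of the other leukocyte and macrophage markers, the lysosomal membrane gene Laptm5 differed between palmitate and control by 1.15, 0.067 and 0.56 log2 in the order first VDH15, SCC25, second VDH15. Its other probe set, with a mean of 6.145 log2 against 6.42, gave only 0.32, -0.11 and 0.12. The phosphatase Ptprc differed by 0.96, 0.0011 and 0.47, and the last value was -0.013 without replicate 3. The membrane gene Ms4a6d differed by 1.42, 0.16 and 1.05, and Ms4a7, a marker of tissue macrophages, by 1.03, -0.090 and 0.14. The pan-leukocyte group had a median difference of 0.96, 0.0011 and 0.47 and the macrophage markers one of 0.92, 0.022 and 0.14, over 5 genes each. The second VDH15 values depended on replicate 3. Without it Ptprc and Cd53 differed by -0.013 each, Cd52 by -0.39, Laptm5 by 0.26 and Itgam by 0.078. Of the macrophage markers, Adgre1 then differed by -0.21, Cd68 by -0.28, Aif1 by 0.15, Ms4a7 by -0.053 and Ms4a6d by 0.50. None of the 7 tested members of these groups was called for palmitate over control. Cd52, a small surface glycoprotein of lymphocytes and monocytes, differed by 0.098, -0.068 and -0.25 and did not follow the others.

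The 3 complement C1q chains, which together form the recognition unit of the classical pathway, had higher means on palmitate in all 3 experiments, with the largest differences in the first VDH15 experiment. C1qb was at 4.67, 5.33, 4.82 and 5.28 on control, 4.96, 4.68, 5.24 and 5.22 on oleate and 7.54, 6.28, 6.71 and 7.39 on palmitate in the first VDH15 experiment. The palmitate arrays lay above all control and oleate arrays, by 1.95 log2 over control. In SCC25 it was at 5.99, 6.06 and 5.93 and 5.95, 6.07 and 6.17 on control and palmitate in non-targeting tumours. Second VDH15 arrays read 5.66, 5.82 and 5.73 and 5.76, 5.84 and 7.02, where again replicate 3 alone was high. The difference there was 0.47 log2, and 0.062 without that array. In shCD36 tumours C1qb was at 5.95 ± 0.06 on control and 6.10 ± 0.10 on palmitate in SCC25, without overlap, and at 5.85 ± 0.25 and 6.31 ± 0.62 in the second VDH15 experiment, with overlap. The means of C1qc were 5.37 ± 0.08, 5.31 ± 0.11 and 6.92 ± 0.18 on control, oleate and palmitate in the first VDH15 experiment (SD over 4 arrays). In SCC25 they were 6.14 ± 0.02 and 6.26 ± 0.15 on control and palmitate in non-targeting tumours and 6.02 ± 0.06 and 6.04 ± 0.03 in shCD36 tumours (SD over 3 arrays). The second VDH15 means were 5.83 ± 0.29 and 6.33 ± 0.56 in non-targeting tumours and 5.95 ± 0.42 and 6.34 ± 0.33 in shCD36 tumours. Its 3 differences in non-targeting tumours were 1.55, 0.12 and 0.50 log2, and those of C1qa 1.10, 0.033 and 0.37. The last values of C1qc and C1qa were 0.18 and 0.23 without replicate 3. None of the 3 chains was called for palmitate over control.

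Among the Fc receptors and adaptors, all 7 had a higher mean on palmitate in both VDH15 experiments and 6 of 7 in SCC25, with medians of 0.50, 0.060 and 0.21 log2 in the order first VDH15, SCC25, second VDH15. Without replicate 3 of the second VDH15 palmitate group, Fcer1g and Fcgr4 had a lower mean on palmitate there. Fcer1g, the common gamma chain, differed by 0.79, 0.059 and 0.21 log2, and the high-affinity IgG receptor Fcgr1 by 0.41, 0.12 and 0.74. The last values were -0.17 and 0.29 without replicate 3. Another probe set of Fcgr1, with a mean of 4.83 log2, gave 0.011, -0.044 and -0.075 with all arrays. Fcgr4 and the lipid receptor Trem2 were among the 3 members that varied least between experiments. The means of Trem2 were 5.78 ± 0.09, 5.72 ± 0.11 and 5.86 ± 0.15 on control, oleate and palmitate in the first VDH15 experiment (SD over 4 arrays). In SCC25 they were 5.72 ± 0.08 and 5.81 ± 0.05 on control and palmitate in non-targeting tumours and 5.88 ± 0.18 and 5.92 ± 0.11 in shCD36 tumours (SD over 3 arrays). The second VDH15 means were 5.83 ± 0.24 and 5.92 ± 0.15 in non-targeting tumours and 5.80 ± 0.19 and 5.80 ± 0.13 in shCD36 tumours. The 3 differences of Trem2 were between 0.085 and 0.090 log2, less than the SD of most of its groups. The other Trem2 probe set, with a mean of 4.92 log2, gave 0.094, -0.091 and 0.013 in the order first VDH15, SCC25, second VDH15. The means of Fcgr4 were 5.45 ± 0.06, 5.41 ± 0.12 and 5.63 ± 0.09 on control, oleate and palmitate in the first VDH15 experiment (SD over 4 arrays). In SCC25 they were 5.54 ± 0.04 and 5.54 ± 0.17 on control and palmitate in non-targeting tumours and 5.54 ± 0.11 and 5.53 ± 0.10 in shCD36 tumours (SD over 3 arrays). The second VDH15 means were 5.53 ± 0.13 and 5.57 ± 0.23 in non-targeting tumours and 5.46 ± 0.10 and 5.59 ± 0.31 in shCD36 tumours. Its differences were 0.18, 0.00040 and 0.040, of which the last was -0.090 without replicate 3. None of the 7 was called for palmitate over control.

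Mrc1, Fgl2, Stab1 and Cd14, of the members that rose in non-targeting tumours, had palmitate arrays above control arrays in SCC25 as well, while those of Pf4 and Ctla2b overlapped there. Mrc1 was at 7.30, 7.20, 6.42 and 6.42 on control, 7.17, 7.25, 7.31 and 7.96 on oleate and 10.04, 9.55, 8.61 and 8.87 on palmitate in the first VDH15 experiment. In SCC25 non-targeting tumours it was at 6.64, 7.15 and 6.44 on control and 8.76, 8.57 and 8.69 on palmitate. Second VDH15 arrays read 7.76, 8.01 and 7.64 on control and 9.39, 8.54 and 9.04 on palmitate. Every palmitate array lay above every control array of its experiment, with differences of 2.43, 1.93 and 1.19 log2. In SCC25 shCD36 tumours Mrc1 was at 6.77, 7.73 and 7.07 on control and 8.50, 8.20 and 8.31 on palmitate. In second VDH15 shCD36 tumours it was at 7.62, 7.02 and 6.71 on control and 6.59, 7.64 and 6.90 on palmitate. The SCC25 groups did not overlap, with a difference of 1.14 log2, and the second VDH15 groups did, with a difference of -0.074.

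Fgl2, which is secreted and also cleaves prothrombin at the cell surface, had its widest difference in SCC25. In the first VDH15 experiment it was at 7.55, 7.21, 6.78 and 6.71 on control, 7.65, 7.26, 7.34 and 7.47 on oleate and 8.93, 9.17, 8.94 and 8.68 on palmitate. In SCC25 non-targeting tumours it was at 6.37, 6.62 and 5.94 on control and 8.78, 9.54 and 9.10 on palmitate. Second VDH15 arrays read 7.89, 7.82 and 7.62 on control and 9.67, 8.14 and 8.45 on palmitate. None of these pairs overlapped, and the differences were 1.87, 2.83 and 0.98 log2. The other Fgl2 probe set, with a mean of 4.86 log2, gave 1.28, 1.45 and 1.14 in the same order, a much narrower range. In shCD36 tumours Fgl2 was at 6.98, 7.43 and 7.66 on control and 7.82, 7.03 and 7.16 on palmitate in SCC25. In second VDH15 shCD36 tumours it was at 7.27, 7.07 and 7.42 on control and 6.26, 6.34 and 6.48 on palmitate, where every palmitate array lay below every control array, by 0.89 log2 in the mean.

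Stab1, a scavenger receptor for modified lipoproteins and matrix fragments, had narrow groups. In the first VDH15 experiment it was at 9.67, 9.76, 9.38 and 9.44 on control, 10.36, 10.10, 10.06 and 10.14 on oleate and 11.13, 11.23, 10.81 and 10.80 on palmitate, and the 3 diets did not overlap. In SCC25 it was at 9.26, 9.49 and 9.45 on control and 10.94, 10.80 and 10.72 on palmitate in non-targeting tumours, and at 9.59, 10.00 and 10.11 and 10.56, 10.52 and 10.47 in shCD36 tumours. It was at 10.17, 10.20 and 10.04 and 11.22, 10.55 and 10.49 in second VDH15 non-targeting tumours, and at 9.87, 9.50 and 9.88 and 9.84, 9.97 and 10.18 in shCD36 tumours. Its differences in non-targeting tumours were 1.43, 1.42 and 0.62 log2, all without overlap.

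Promoters of these 3 genes, from the same RefSeq windows and with the same letters in capitals, lie at chr2:14229164-14229463, plus strand, at chr14:31168592-31168891, minus strand and at chr5:21372423-21372722, plus strand in the order below. Mrc1 held the motif 2 times, both on the opposite strand, and Stab1 and Fgl2 did not hold it in these windows. They are shown beside Cd53, Cybb and Fcer1g because the levels of the 2 sets of genes differed between experiments in unlike ways.
Mrc1: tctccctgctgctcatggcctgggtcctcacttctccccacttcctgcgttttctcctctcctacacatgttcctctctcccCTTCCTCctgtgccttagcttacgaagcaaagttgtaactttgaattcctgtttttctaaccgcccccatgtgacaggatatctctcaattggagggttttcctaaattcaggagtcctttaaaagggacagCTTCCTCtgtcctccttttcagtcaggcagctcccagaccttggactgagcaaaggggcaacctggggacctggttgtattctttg
Stab1: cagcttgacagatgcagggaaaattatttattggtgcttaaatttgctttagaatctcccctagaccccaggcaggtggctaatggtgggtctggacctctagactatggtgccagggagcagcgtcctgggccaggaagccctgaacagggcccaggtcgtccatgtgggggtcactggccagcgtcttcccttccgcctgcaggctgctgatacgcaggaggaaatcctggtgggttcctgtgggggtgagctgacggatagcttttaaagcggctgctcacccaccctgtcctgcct
Fgl2: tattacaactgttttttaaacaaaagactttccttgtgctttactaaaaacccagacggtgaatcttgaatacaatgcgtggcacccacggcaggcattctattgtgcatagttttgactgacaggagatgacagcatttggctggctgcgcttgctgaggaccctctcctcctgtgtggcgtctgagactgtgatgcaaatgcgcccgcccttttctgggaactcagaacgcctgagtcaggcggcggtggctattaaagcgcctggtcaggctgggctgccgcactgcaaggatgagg

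Cd14 was at 6.74, 7.22, 6.71 and 6.73 on control, 7.84, 7.51, 7.66 and 7.43 on oleate and 8.38, 8.78, 8.02 and 8.66 on palmitate in the first VDH15 experiment, and the 3 diets did not overlap. In SCC25 non-targeting tumours it was at 6.81, 6.80 and 7.35 and 8.16, 8.26 and 8.25 on control and palmitate, and in the second VDH15 experiment at 7.59, 7.20 and 7.04 and 8.18, 7.72 and 8.50. These pairs did not overlap either, and the differences were 1.61, 1.24 and 0.86 log2. In shCD36 tumours the control and palmitate means were 7.38 ± 0.12 and 7.53 ± 0.05 in SCC25 and 7.39 ± 0.12 and 7.32 ± 0.09 in the second VDH15 experiment (SD, 3 arrays), with overlap in both. Lyz2 was at 5.24, 6.52, 7.43 and 5.54 on control, 6.37, 5.30, 7.26 and 5.34 on oleate and 8.97, 8.94, 9.09 and 9.37 on palmitate in the first VDH15 experiment. In SCC25 non-targeting tumours it was at 7.27, 7.36 and 7.47 and 8.42, 8.30 and 8.55, and in the second VDH15 experiment at 6.67, 6.53 and 6.60 and 7.37, 6.89 and 10.24. None of the 3 pairs overlapped, with differences of 2.91, 1.06 and 1.57 log2, of which the last was 0.53 without replicate 3. In shCD36 tumours Lyz2 was at 7.10, 7.03 and 7.06 and 7.11, 7.11 and 8.12 in SCC25 and at 7.66, 7.15 and 6.22 and 8.34, 9.35 and 7.91 in the second VDH15 experiment. Its palmitate arrays lay above the control arrays without overlap in shCD36 tumours of both experiments, and Mrc1 and Stab1 did so in those of SCC25.

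The means of Ctla2b were 6.11 ± 0.32, 6.72 ± 0.29 and 7.68 ± 0.11 on control, oleate and palmitate in the first VDH15 experiment (SD over 4 arrays). In SCC25 they were 6.61 ± 0.17 and 6.99 ± 0.31 on control and palmitate in non-targeting tumours and 6.56 ± 0.08 and 6.72 ± 0.18 in shCD36 tumours (SD over 3 arrays). The second VDH15 means were 6.39 ± 0.33 and 7.59 ± 0.55 in non-targeting tumours and 6.59 ± 0.18 and 6.31 ± 0.28 in shCD36 tumours. Its 3 differences in non-targeting tumours were 1.58, 0.37 and 1.20 log2, and the arrays overlapped in SCC25. The means of Pf4 were 4.99 ± 0.13, 5.04 ± 0.16 and 5.66 ± 0.52 on control, oleate and palmitate in the first VDH15 experiment (SD over 4 arrays). In SCC25 they were 5.17 ± 0.14 and 5.43 ± 0.24 on control and palmitate in non-targeting tumours and 5.31 ± 0.12 and 5.27 ± 0.05 in shCD36 tumours (SD over 3 arrays). The second VDH15 means were 5.16 ± 0.06 and 5.55 ± 0.40 in non-targeting tumours and 5.15 ± 0.04 and 5.31 ± 0.05 in shCD36 tumours. Its differences were 0.67, 0.26 and 0.39 log2, with overlap in SCC25. The scavenger receptors Marco, Msr1, Cd163 and Folr2 and the lectin receptors Clec7a and Clec10a differed by between -0.10 and 0.49 log2 in the 3 pairs. The means of Marco were 5.15 ± 0.01, 5.11 ± 0.05 and 5.05 ± 0.08 on control, oleate and palmitate in the first VDH15 experiment (SD over 4 arrays). In SCC25 they were 5.12 ± 0.13 and 5.06 ± 0.05 on control and palmitate in non-targeting tumours and 5.01 ± 0.16 and 4.99 ± 0.03 in shCD36 tumours (SD over 3 arrays). The second VDH15 means were 5.13 ± 0.22 and 5.11 ± 0.29 in non-targeting tumours and 4.80 ± 0.15 and 5.15 ± 0.14 in shCD36 tumours. Marco had a lower mean on palmitate in all 3 pairs, by at most 0.10 log2, and was not tested. Spi1, Csf1r and Cx3cr1 were not called: their differences ranged from -0.35 log2 (Cx3cr1, first VDH15) to 0.31 (Csf1r, first VDH15).

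**Figure D2:**
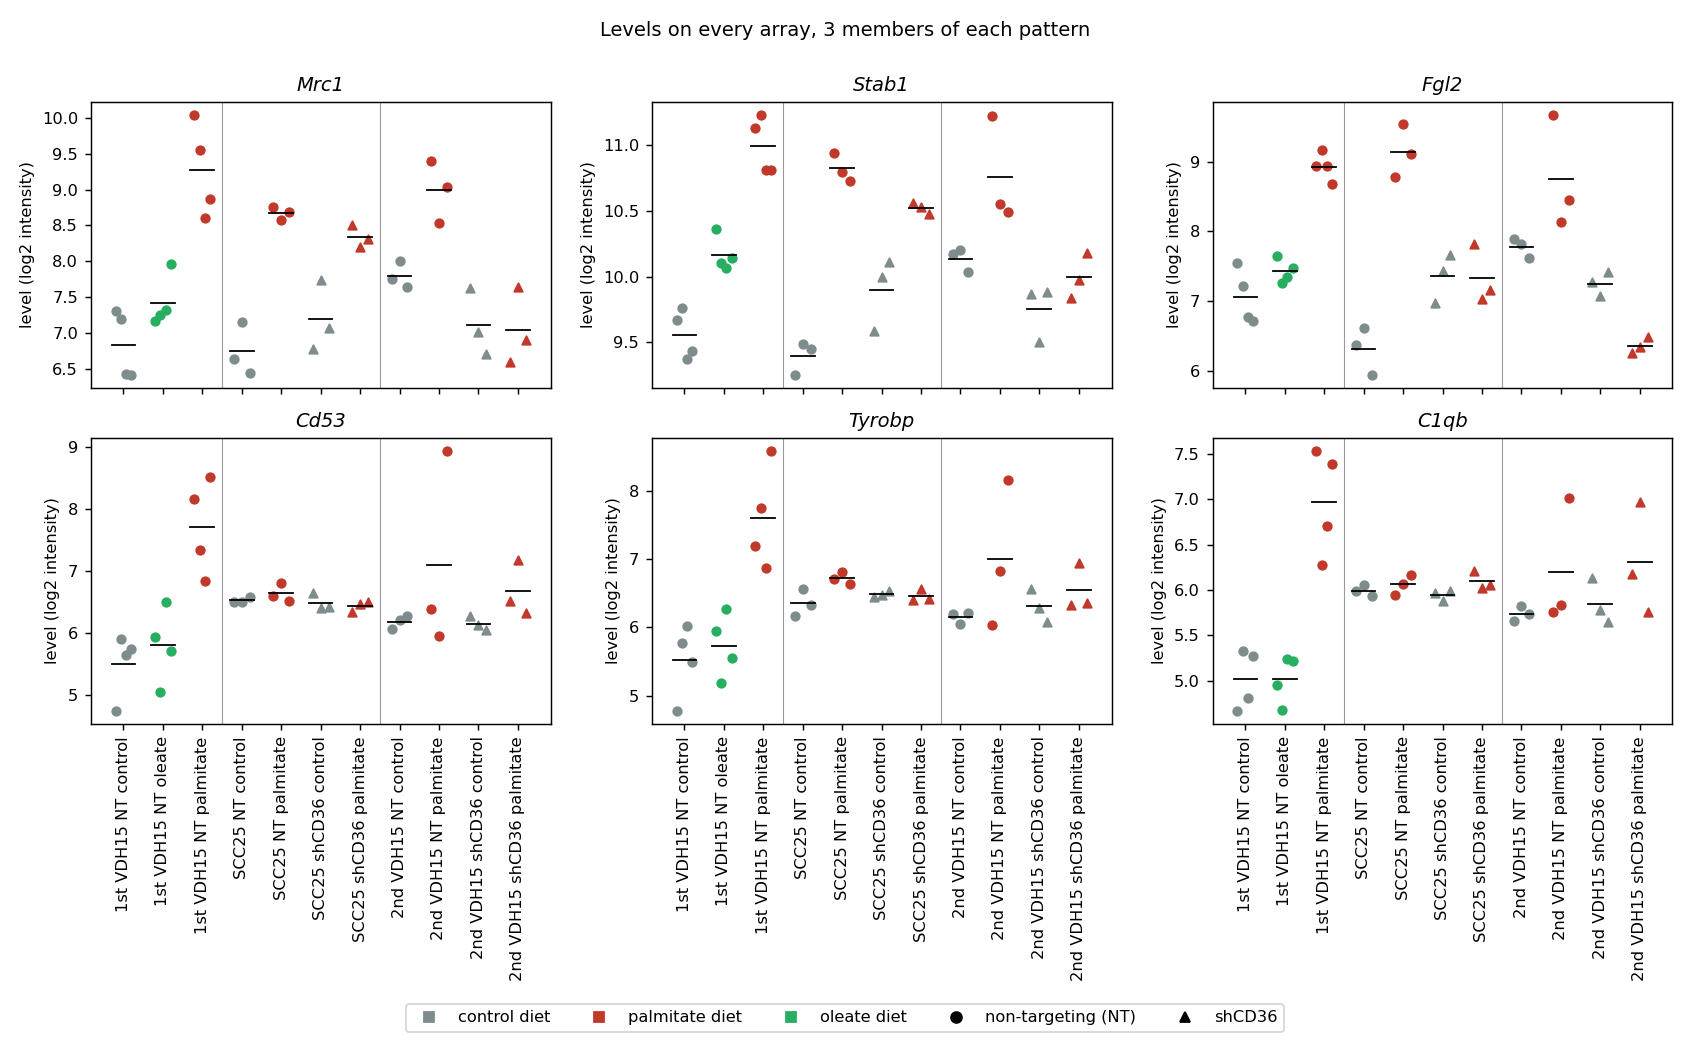
Level (log2 intensity, vertical axis) of Mrc1, Stab1, Fgl2, Cd53, Tyrobp and C1qb on each array of the 11 groups (horizontal axis), with circles for non-targeting and triangles for shCD36 tumours, colours for the diets and black bars for group means. In the upper row the non-targeting palmitate arrays lie above the control arrays of each experiment, and in the lower row the second VDH15 palmitate group has 1 array (replicate 3) far above the others, at 8.94, 8.17 and 7.02 log2.

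Whether the palmitate effect differed between experiments was tested over the differences of all 3, with 2 residual degrees of freedom. No member and no gene passed (0.0% of 12823 genes), and the smallest limma adjusted p was 0.310, for Cd53, C1qb and Tyrobp. At an unadjusted p under 0.05, 13 of 31 members (41.9%) and 10.3% of all genes passed. The estimate of first VDH15 minus SCC25 was 2.04 ± 0.17 log2 for Cd53, 1.86 ± 0.16 for C1qb and 1.66 ± 0.17 for Tyrobp (SE, limma adjusted p = 0.140, 0.140 and 0.144). The median of this difference over the 31 members was 0.43 log2 and over all genes -0.0068. With the arrays as units the calls were 6 members with the group as a random block and 11 in non-targeting arrays alone, fits whose error covers mainly the spread between technical replicates. The share of all genes called in these fits is not given here, so the counts do not single out the members.

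Within the first VDH15 experiment, scan batches 2 and 3 each held 2 arrays of each diet. The median difference of the 40 members was 0.91 log2 in scan batch 2 and 0.45 in scan batch 3, with 38 and 35 of 40 above 0. Cd53 differed by 3.14 and 1.27 log2, C1qb by 2.72 and 1.19, and Mrc1 by 2.60 and 2.27. Scan batch 2 held palmitate replicate 4, on which 23 of the 40 members had their highest palmitate value of this experiment. The share of all genes highest on it is not given here. Without that array the median difference of the 40 members in the first VDH15 experiment was 0.47 log2 in place of 0.61, with 38 above 0. Each of the other groups lay in 1 scan batch, and each experiment in 1 hybridisation batch of its own, so experiment and hybridisation batch cannot be told apart. The 2 VDH15 experiments share their tumour cells, and those of SCC25 cannot be told apart from its experiment and batch. On replicate 3 of the second VDH15 non-targeting palmitate group 29 of the 40 members had their highest value of the 3 arrays, against 29.0% of all genes. Without that array the median difference of the 40 members in the second VDH15 experiment was 0.13 log2 in place of 0.33.

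Levels of markers of other cells moved with the groups. The mean of the 12 blood endothelial markers in non-targeting tumours went from 8.51 on control to 9.90 log2 on palmitate in the first VDH15 experiment, from 7.87 to 10.1 in SCC25 and from 9.04 to 9.86 in the second VDH15 experiment. All 12 had a higher mean on palmitate in each experiment, and 3 of 12 were called higher: Plvap by 1.08 ± 0.19 log2, Vwf by 1.25 ± 0.24 and Tek by 1.57 ± 0.33 (SE, limma adjusted p = 0.0288, 0.0342 and 0.0429). Their median difference was 1.36, 2.42 and 0.90 log2 in the order first VDH15, SCC25, second VDH15, and that of the 5 lymphatic endothelial markers 1.97, 2.08 and 1.04, with none of these 5 called. The 10 fibroblast markers had median differences of 0.82, 1.23 and 0.61, and 4 of the 8 tested were called higher, among them Postn by 1.56 ± 0.19, Thy1 by 0.84 ± 0.13 and Lum by 1.94 ± 0.38 (SE, limma adjusted p = 0.0171, 0.0259 and 0.0360). Of the 8 keratinocyte markers 2 were called lower, Krt4 by -1.95 ± 0.34 and Krt13 by -1.23 ± 0.26 (SE, limma adjusted p = 0.0288 and 0.0426), and the group had a median of -1.12, -0.073 and -0.25. Of all 12823 genes tested, 3.65% were called higher and 887 were called in either direction. In such bulk RNA, fewer cells of a type and less RNA per cell cannot be told apart. The part of these cells in the values of the members was not tested.

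Arrays of the same group differ in their values, and these deviations from the group mean do not contain the diet or the hairpin. Over the 36 arrays, 22 of the 40 members had a Pearson r above 0.5 with the mean of 48 other macrophage and phagocyte genes, none of them members, and 4 had one above 0.5 with the mean of the 12 blood endothelial markers. The r with the phagocyte genes was 0.95 for Ptprc, 0.90 for Ms4a6d, 0.89 for Cd53, 0.88 for Cybb and 0.85 for Tyrobp. It was 0.53 for Cd14 and 0.71 for Lyz2, and 0.085 for Mrc1, -0.048 for Ctla2b, -0.11 for Fgl2 and -0.23 for Stab1. The r with the endothelial markers was 0.78 for Stab1, 0.60 for Fgl2, 0.59 for Ctla2b and 0.56 for Mrc1, and -0.21 for Cd53 and -0.41 for Tyrobp. The closest pairs of members were Cd53 with Fcer1g (r = 0.92) and Cd53 with Cybb (r = 0.90). These are descriptions over arrays that share groups, amplification and scale. No r is given without the arrays that stood apart, and arrays far from their group mean weigh most in r. On palmitate replicate 3 of second VDH15 non-targeting tumours Ptprc was at 5.61 and Cd53 at 8.94 log2, against group means of 4.64 and 7.09. With the mean of the 10 fibroblast markers r was 0.51 for Mrc1, 0.50 for Stab1, 0.45 for Fgl2 and 0.32 for Ctla2b. For these 4 genes r with the endothelial and the fibroblast markers was higher than r with the phagocyte genes, which goes against the label of the list. What part either cell type had in their levels was not tested.

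**Figure D3:**
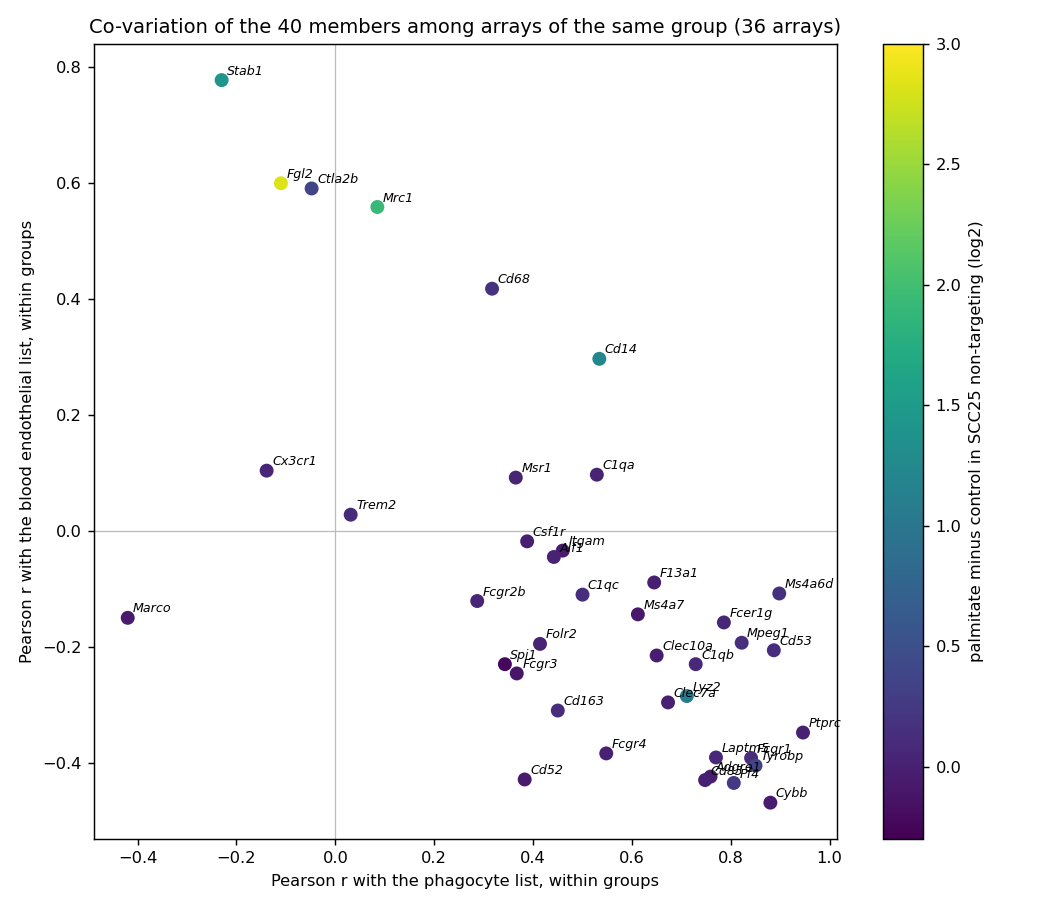
Pearson r of each member with the mean of 48 other phagocyte genes (horizontal axis) and with the mean of 12 blood endothelial markers (vertical axis), from deviations of 36 arrays from their group means; colour gives palmitate minus control in SCC25 non-targeting tumours (log2). Stab1, Fgl2, Ctla2b and Mrc1 lie at the top left with r of 0.56 to 0.78 with the endothelial markers, and Ptprc, Cd53 and Cybb at the lower right.

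In shCD36 tumours no member was called for palmitate over control in the limma fit (0.0% of genes, n = 2), and 1 of 31, the cytoplasmic calcium-binding gene Aif1, had an unadjusted p under 0.05 (3.23%, against 2.20% of all genes). In SCC25 shCD36 tumours the median difference of the 40 members was 0.025 log2, and 6 of 40 (15.0%) had palmitate arrays above control arrays without overlap, against 12.0% of all genes. In second VDH15 shCD36 tumours the median was 0.14 log2, and 9 of 40 (22.5%) did, against 8.32%. Stab1 differed by 0.62 log2 in SCC25 shCD36 tumours and by 0.25 in second VDH15 shCD36 tumours.

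On palmitate, 4 of the members that rose in non-targeting tumours were lower on the shCD36 arrays. The same non-targeting palmitate arrays enter both comparisons. Members named for high values on them are thereby favoured to be lower on other arrays, so this is no separate support. Cd14, Mrc1, Stab1 and Fgl2 had every shCD36 palmitate array below every non-targeting palmitate array in both experiments, 4 of 40 members against 4.74% of all genes. In SCC25 alone 9 of 40 (22.5%) did, against 10.3% of all genes, and in the second VDH15 experiment 5 of 40 (12.5%), against 15.3%, so that the latter share is no higher than that of all genes. No member was called for shCD36 over non-targeting on palmitate in the limma fit, where 0.374% of genes were. An unadjusted p under 0.05 was found for 4 of 31 (12.9%), below the 18.4% of all genes. The smallest limma adjusted p was 0.0861, for Cd14, at -0.85 ± 0.17 log2 (SE, n = 2), followed by Fgl2 at -2.09 ± 0.48 (adjusted p = 0.106). On the control diet none was called (0.0% of genes), none had an unadjusted p under 0.05 (against 3.39% of all genes), and the median difference of the 40 was 0.025 log2 in SCC25 and -0.0049 in the second VDH15 experiment. Single members differed on that diet too. Mrc1, Stab1 and Fgl2 had every shCD36 control array below every non-targeting one in the second VDH15 experiment, by -0.68, -0.38 and -0.53 log2, 3 of 40 members (7.5%) against 8.71% of all genes. In SCC25 the shCD36 control arrays of Stab1 and Fgl2 lay above the non-targeting ones, by 0.50 and 1.05 log2, as did those of Cd163 and F13a1, 4 of 40 (10.0%) against 12.0% of all genes. The difference of the palmitate effect between the hairpins was not called for any member or gene (0.0%), with 4 of 31 members (12.9%) and 15.7% of all genes at an unadjusted p under 0.05 and a smallest limma adjusted p of 0.103, for Cd14 at -1.20 ± 0.22 log2. With the arrays as units and the group as a random block, 5 members were called for shCD36 over non-targeting on palmitate and 3 for the difference of the effects. The share of all genes called in that fit is not given here, so these counts do not single out the members. The blood endothelial markers also differed: their mean on palmitate was 9.18 in shCD36 and 10.1 log2 in non-targeting SCC25 tumours, and 8.30 and 9.86 in the second VDH15 experiment.

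**Figure D4:**
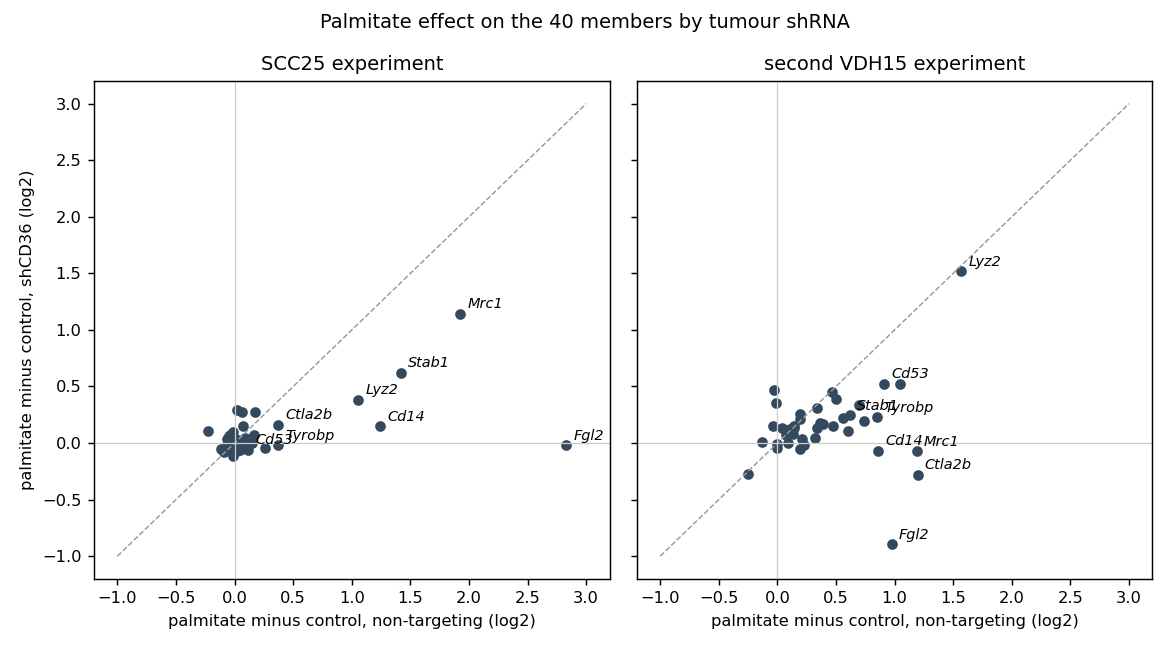
Palmitate minus control (log2) of the 40 members in non-targeting (horizontal axis) and shCD36 tumours (vertical axis) of the SCC25 (left) and second VDH15 (right) experiments; the dashed line marks equal differences. Fgl2, Mrc1, Cd14 and Ctla2b lie below the line in both, and Fgl2 reaches -0.89 log2 in second VDH15 shCD36 tumours, while Lyz2 lies near the line in the second VDH15 experiment. There the non-targeting difference of Lyz2 was 1.57 log2 with all arrays and 0.53 without palmitate replicate 3, against 1.52 in shCD36 tumours.

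Oleate was given in the first VDH15 experiment alone, as 1 biological replicate, so the error in its tests comes from the spread of the other groups and assumes that oleate varies like them. In that fit no member was called for oleate over control (0.0% of genes, n = 1), and 1 of 31 (3.23%), Cd14, had an unadjusted p under 0.05, against 1.755% of all genes. The fitted median of the 31 members was -0.091 log2 with 8 of 31 above 0, opposite in sign to the plain median of differences between array means. The plain median difference of the 40 members was 0.036 log2 with 23 of 40 above 0, and 3 of 40 (7.5%), Cd14, Stab1 and Ctla2b, had oleate arrays above control arrays without overlap, against 5.5% of all genes. For palmitate over oleate the median was 0.59 log2 with 38 of 40 above 0, no member was called while 0.039% of genes were, and 12 of 31 (38.7%) had an unadjusted p under 0.05, against 12.4% of all genes. The smallest limma adjusted p was 0.268, for Lyz2. Both comparisons share their palmitate or control arrays with palmitate over control in that experiment.

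The other genes of the pathway were read from lists. Of 48 other macrophage and phagocyte genes measured, 34 were tested between palmitate and control diets in non-targeting tumours, 2 rose and 1 fell in limma. Of all 12823 genes tested, 3.65% were called higher and 887 were called in either direction, so these few calls do not single out the list. The lysosomal lipase Lipa rose by 0.78 ± 0.14 log2 and the oxidase subunit Cyba by 1.48 ± 0.30, and the galectin Lgals3 fell by 0.48 ± 0.10 (SE, adjusted p = 0.0337, 0.0391 and 0.0432). The median difference of the 48 was 0.22, -0.016 and 0.15 log2 in the order first VDH15, SCC25, second VDH15, the same order as for the members. Of 16 myeloid growth factors and chemoattractants 14 were tested and 1 rose, the chemokine Cxcl12 of stromal cells, by 1.16 ± 0.23 (adjusted p = 0.0375); its differences were 1.77, 0.81 and 0.91 log2. Ccl9, a chemokine for myeloid cells, differed by 0.45 ± 0.11 (adjusted p = 0.0535). Of the 3 tested of 4 receptors for such factors, Csf2rb, the shared beta chain of the receptors for GM-CSF, IL-3 and IL-5, rose by 0.81 ± 0.14 (adjusted p = 0.0280).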

How the data were processed

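The deposited table holds log2 intensities of 36 mouse Affymetrix arrays, made by the authors with RMA (the robust multi-array average) in affy, per the submitters' processing notes. In 100% of 17097 genes the coefficients of hybridisation and scan batch were below 1e-06 log2 with diet and shRNA in the model, and in 0% without, so the values had been adjusted for batch before they were deposited, a step not given in the sources used here. Differences of averages within an experiment are not changed by it. No raw intensities were used.

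Probe sets were named from the platform annotation, and those of several genes were left out. The 25% of genes with the lowest mean (under 5.19 log2) were removed, leaving 12823. The mean of each group's arrays was taken, and these 11 values per gene went into limma 3.58.1 (R 4.3.3) with fixed effects of condition (5 levels) and experiment, with 4 residual degrees of freedom and Benjamini-Hochberg adjustment over all 12823 genes at 0.05. The labels do not say that arrays of a group came from separate tumours or mice, so arrays measure technical spread only. Because the first VDH15 experiment enters without shCD36, fitted values with shCD36 or oleate can differ from plain differences within an experiment. The palmitate effect between experiments was an F test of 1 palmitate term for each experiment. The fit was tested on simulated data. Plain differences, overlap of arrays and Pearson correlations of deviations from group means are descriptions (Python 3.11.15, pandas 2.3.3). Alternatives were the arrays as units, a replicate block, no experiment term, no filter, the mean of all probe sets, quantile normalization, and leaving out arrays or experiments.

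Array numbers are shared between groups: deviations of same-numbered arrays correlated with a median r of 0.0079 (48 pairs, -0.30 to 0.34) against -0.016 for other numbers (108 pairs), so the numbers do not pair arrays. The members, gene lists and tests were chosen with earlier results of these data known. Values in all groups are given for members called in any contrast and for the 6 members with the largest and the 3 with the smallest range of the palmitate effect between experiments. Of each list of other genes at most 3 were named, by smallest unadjusted p. Genes of these lists without a probe set of their own were not analysed here.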

Additional observations from a re-analysis of the deposited data

Results flagged for a closer look

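Opposite directions of palmitate over control between groups were seen for 4 members, with arrays that do not overlap. These differences were not tested as such, and the share of all genes with such opposite directions is not given here. In the first VDH15 experiment alone 14.6% of all genes were higher and 18.65% lower on palmitate without overlap. The fractalkine receptor gene Cx3cr1 was lower on palmitate in the first VDH15 experiment, by -0.35 log2, and higher in second VDH15 non-targeting tumours, by 0.23. Its other probe set, with a mean of 5.21 log2, gave -0.056 and 0.23. The folate receptor gene Folr2 was higher in the first VDH15 experiment, by 0.37, and lower in SCC25 shCD36 tumours, by -0.068. The clotting factor gene F13a1 was higher in the first VDH15 experiment, by 0.36, and lower in SCC25 shCD36 tumours, by -0.11. Fgl2 was higher in non-targeting tumours of all 3 experiments, by 1.87 (first VDH15), 2.83 (SCC25) and 0.98 (second VDH15), and lower in second VDH15 shCD36 tumours, by -0.89.

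Among the groups of 4 arrays, 1 array lay far from the other 3 in 8 of 120 member and group combinations, where chance gives about 1 in 20. On the control diet these were Itgam on replicate 1 (4.16 log2, low) and Cd68 and Cd14 on replicate 2 (7.24 and 7.22, high). On oleate it was Laptm5 on replicate 3 (6.57, high). On palmitate they were Clec10a and Cd83 on replicate 4 (5.47 and 6.56, high), Marco on replicate 3 (5.18, high) and Ctla2b on replicate 3 (7.51, low).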

How the results depend on the processing

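In the palmitate contrast of non-targeting tumours, 6 members were called; 17 were with arrays as units and the group as a random block, 16 with the replicate block, 15 with no experiment term, 2 with no filter, 2 without the 3 arrays that stood apart and 0 with only the 6 averages of the contrast. Leaving out each experiment, or replicate 3 of the second VDH15 palmitate group (chosen after seeing the data), gave 0 to 5. For shCD36 over non-targeting on palmitate the 3 fits with arrays as random blocks, with the replicate block and with no experiment term called 5, 5 and 3 members in place of 0, for the difference of the palmitate effects 3, 3 and 1, and for palmitate over oleate 4, 2 and 2. For the palmitate effect between experiments they were 6 with the random block, 6 with the replicate block and 11 in non-targeting arrays alone. The shares of all genes called in these alternatives are not given here, so the counts do not single out the members. The array numbers do not pair arrays. The fitted median of the members for shCD36 over non-targeting on palmitate was -0.20 log2, -0.13 with no filter and -0.25 to -0.044 when experiments were left out. On the control diet it was 0.13, and 0.052 to 0.22 when they were left out; for the difference of the effects it was -0.33, and -0.43 to -0.12. The cause was not tested. The other medians moved by less than the spread between experiments or arrays. All 12 alternatives gave a positive difference for each of the 6 called members. Few experiments, and technical arrays within them, limit the precision.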

Other observations

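Other immune genes gave few differences between palmitate and control diets in non-targeting tumours. Of the tested markers of neutrophils (6), T cells (5), B cells (3), natural killer cells (3), mast cells (3) and dendritic and Langerhans cells (3), none was called in limma. The T cell receptor gene Cd3e differed by 0.62 ± 0.34 log2 (SE, limma adjusted p = 0.295), with 1.48, 0.45 and -0.057 in the order first VDH15, SCC25, second VDH15. Of the 6 tested MHC class II genes none was called either. Cd74, the invariant chain, differed by 0.55 ± 0.16 (limma adjusted p = 0.0818), with 1.01, 0.098 and 0.54 log2 in the same order, and H2-Eb1 by 1.49, 0.054 and 0.57. Hdc, the histamine-forming enzyme of mast cells and some myeloid cells, differed by 1.11, 0.28 and 0.47 log2 (limma adjusted p = 0.0608), and Zbtb46, a factor of dendritic and endothelial cells, by 0.97, 0.33 and 0.54 (limma adjusted p = 0.0650). The neuronal tubulin gene Tubb3 fell by 1.16 ± 0.14 (limma adjusted p = 0.0171), and the glial receptor gene Erbb3 differed by -0.82 ± 0.23 (limma adjusted p = 0.0772). The erythroid enzyme gene Alas2 differed by 2.17, 1.97 and -0.35 log2 (limma adjusted p = 0.276).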
